A study of Mus musculus with 36 samples.

Results

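The 9 genes of the perivenous program followed here through liver development were glutamine synthetase (Glul), ornithine aminotransferase (Oat), the glutamate transporter Slc1a2, the ammonia transporter Rhbg, axin 2 (Axin2), the R-spondin receptor Lgr5, T-box 3 (Tbx3), leukocyte cell-derived chemotaxin 2 (Lect2) and regucalcin (Rgn). They were picked by name, as genes of pericentral hepatocytes and of Wnt signaling, and are 9 of the 21889 gene symbols in the table. Liver mRNA of 36 male C57BL/6 mice (C57BL/6J in the study's methods) was sequenced at 12 ages with 3 mice per age. The ages were late gestation (GD17.5), Day 0, taken directly after birth before suckling, Days 1, 3 and 5, every 5 days from Day 10 to Day 30, and Days 45 and 60. No mouse was treated or carried an altered allele, the mice of an age came at random from several litters, and weaning fell between the Day 20 and the Day 25 collections. Expression is given as FPKM, the number of sequenced fragments of a gene scaled for transcript length and for the reads mapped in the library, so levels of different genes can be set side by side.

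Hepatocytes of the liver lobule differ with their distance from the vessels. Around the central vein, endothelial cells release Wnt ligands and R-spondins that keep beta-catenin active in the adjoining hepatocytes. Beta-catenin with TCF/LEF factors turns on a pericentral set of genes there, among them the machinery that takes up ammonia and glutamate and fixes them as glutamine, while urea synthesis and gluconeogenesis lie mainly on the periportal side. Whole-liver RNA holds no information on position, and in such bulk samples fewer cells of a type and less RNA per cell cannot be told apart.

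All 9 genes are protein-coding in the Ensembl annotation of NCBI37/mm9, the build of the table. Glul (ENSMUSG00000026473) lies at chr1:155747074-155756853, plus strand, Oat (ENSMUSG00000030934) at chr7:139749158-139768081, minus strand, and Slc1a2 (ENSMUSG00000005089) at chr2:102498816-102630941, plus strand. Rhbg (ENSMUSG00000001417) lies at chr3:88046796-88091132, minus strand, Axin2 (ENSMUSG00000000142) at chr11:108781663-108812097, plus strand, and Lgr5 (ENSMUSG00000020140) at chr10:114887367-115024836, minus strand. Tbx3 (ENSMUSG00000018604) lies at chr5:120120678-120134733, plus strand, Lect2 (ENSMUSG00000021539) at chr13:56643821-56649899, minus strand, and Rgn (ENSMUSG00000023070) at chrX:20126913-20139215, plus strand. Other annotated genes overlap the spans of Glul, Oat, Slc1a2, Rhbg, Axin2, Lgr5 and Tbx3, and the library kit did not mark strand, so reads from an overlapping gene cannot be told apart from theirs where exons overlap.

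Promoter windows of 250 bases before to 50 after the start site were in the RefSeq table (GRCm38.p6) for 5 of the 9 genes (Glul, Oat, Slc1a2, Axin2 and Lect2). The letters CTTTGAT, the core recognized by TCF/LEF factors, were searched on both strands and occur in 3.73% of the 32851 windows of that length in the table. Slc1a2 and Lect2, the genes with the widest ranges across age, each held a single match, on the strand opposite to transcription and shown in capitals. The Oat window, whose gene followed a time course like that of Slc1a2, is shown for comparison and held none, as was so for Glul and Axin2. A match describes the letters of a window and does not show a site that is used. The windows are chr2:102706188-102706487 (plus strand), chr13:56548489-56548788 (minus strand) and chr7:132576349-132576648 (minus strand), printed 5′ to 3′ in the direction of transcription.
Slc1a2: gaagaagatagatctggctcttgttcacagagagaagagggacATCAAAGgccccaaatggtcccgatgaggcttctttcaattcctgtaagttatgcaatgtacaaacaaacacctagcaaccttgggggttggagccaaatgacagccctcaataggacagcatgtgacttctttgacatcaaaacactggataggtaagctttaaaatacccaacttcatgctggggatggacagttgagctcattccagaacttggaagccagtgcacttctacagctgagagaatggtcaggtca
Lect2: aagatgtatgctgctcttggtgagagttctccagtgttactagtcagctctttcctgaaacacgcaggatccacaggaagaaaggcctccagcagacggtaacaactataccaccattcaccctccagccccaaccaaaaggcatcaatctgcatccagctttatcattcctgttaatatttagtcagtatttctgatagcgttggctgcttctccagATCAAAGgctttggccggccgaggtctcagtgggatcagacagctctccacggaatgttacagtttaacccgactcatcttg
Oat: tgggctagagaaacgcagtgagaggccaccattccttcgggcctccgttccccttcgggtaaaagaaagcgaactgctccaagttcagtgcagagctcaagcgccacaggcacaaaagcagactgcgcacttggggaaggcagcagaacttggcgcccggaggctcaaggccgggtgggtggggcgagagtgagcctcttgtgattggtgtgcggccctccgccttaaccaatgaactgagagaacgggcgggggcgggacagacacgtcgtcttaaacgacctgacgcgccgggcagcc

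Each gene differed between Day 60 and at least 1 other age in limma fits on log2(FPKM + 1), but the 9 genes did not share a single time course. Of the 9, 7 reached a mean of 1 FPKM at an age and were tested with 11149 genes in all, and 7 of 7 passed (adjusted p under 0.05), against 90.7% of all tested genes. Axin2 and Lgr5 stayed under that level (highest age means 0.717 and 0.909 FPKM) and were tested only in a fit without the filter, where both also passed (adjusted p = 0.0118 and 0.00347) against 75.7% of 18601 genes. The ratio of the highest to the lowest age mean ran from 2.32 for Glul to 279 for Slc1a2. Oat, Slc1a2, Tbx3 and Rgn had their highest mean at Day 45 or Day 60, Rhbg and Glul at Day 5, Axin2 and Lect2 at Day 10, and Lgr5 at Day 15.

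**Figure D1:**
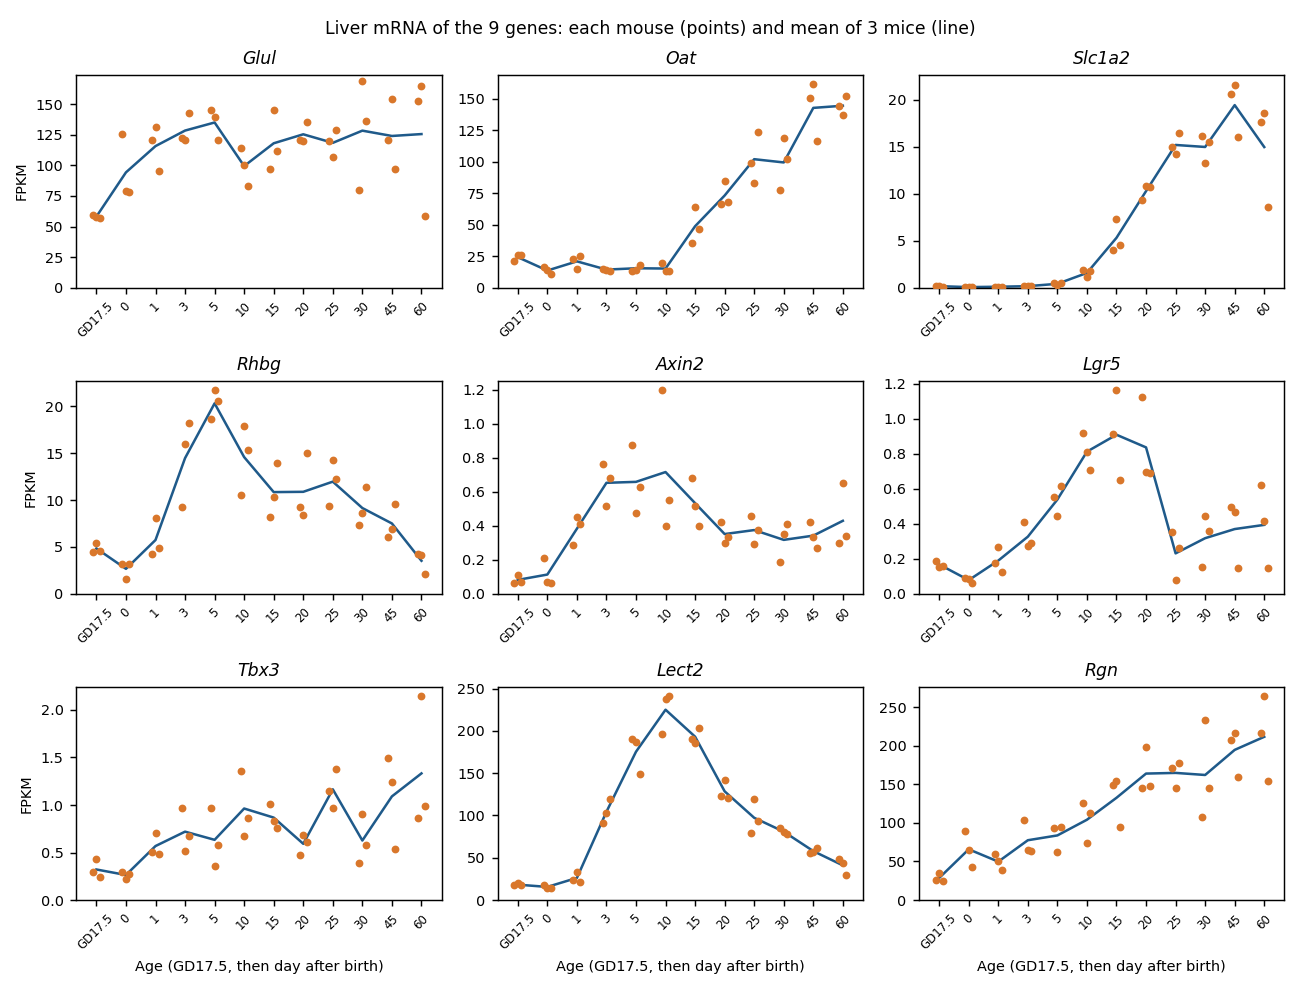
FPKM of each of the 9 genes (y axis, linear and starting at 0) against age in order (x axis, GD17.5 and then the day after birth, not to scale in time), with 1 point per mouse and a line through the means of 3 mice. Oat and Rgn are highest at Days 45 and 60, and Slc1a2 is highest at Day 45. Rhbg, Lgr5 and Lect2 peak between Day 5 and Day 15, at means of 20.3, 0.909 and 225 FPKM, and are lower at Day 60.

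Markers of other liver cells differed widely between these ages. Summed FPKM of 8 hepatocyte markers was 8060 to 9570 in the 3 livers of GD17.5 and 37600 to 81600 in the livers of all later ages. The sum of 9 erythroid markers was 127000 to 185000 at GD17.5, 21500 to 80500 from Day 0 to Day 5 and 651 to 716 at Day 60. The sum of 7 endothelial markers was 40 to 56.8 at GD17.5, 103 to 123 at Days 3 and 5 and 56.8 to 68.9 at Day 60, and that of 6 stellate and mesenchymal markers was 55.4 to 168 from GD17.5 to Day 5 and 13.5 to 17.1 at Day 60. The part of these shifts in the differences below was not tested. Exocrine pancreas markers summed to 17900 FPKM in Day 60 replicate 1, against 4.82 and 5.31 FPKM in the other livers of that age, and to 4160 to 6200 FPKM in 1 liver each of Days 0, 15, 20 and 45. Kidney markers summed to 62.4 FPKM in the Day 1 replicate 2 library and to 3.66 FPKM in replicate 3 of that age, against 0 to 0.131 FPKM in the other 34. In 5 libraries (Day 1 replicate 3, Day 10 replicate 3, Day 25 replicate 2, Day 30 replicate 1 and Day 45 replicate 3) long transcripts read low against the other mice of the age, by 0.1 or more on the log2 scale per SD of log2 transcript length. Counts of differing genes are also given without these 5 libraries. Day 0 replicate 1 was the highest mouse of its age for 8 of the 9 genes and held skeletal muscle markers at a summed 1130 FPKM, and Day 60 replicate 3 was the lowest of its age for 6 of the 9.

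Among the genes of ammonia and glutamine handling, Glul, which joins ammonia and glutamate into glutamine, was already strongly expressed before birth. At GD17.5 it measured 59.8, 58 and 56.7 FPKM in the 3 mice, and at Day 0 126, 79.1 and 78.1 FPKM. Every newborn liver was above every fetal liver, and the step was 0.65 ± 0.27 on the log2 scale (SE, adjusted p = 0.0458). Close to the threshold, the call ended in 12 alternative fits, the furthest of them without Day 0 replicate 1 (0.43, adjusted p = 0.237), and also without GD17.5 replicate 1 (0.67, adjusted p = 0.0806), 2 (0.65, adjusted p = 0.0863) or 3 (0.63, adjusted p = 0.0922). Glul then measured 121, 131 and 95.1 FPKM at Day 1, 122, 121 and 143 FPKM at Day 3 and 145, 139 and 121 FPKM at Day 5. From Day 0 on no neighbour in the order of its age means differed from the next.

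The Glul means of Days 10 to 60 lay between 99.4 and 128 FPKM, but single mice differed widely. At Day 30 the 3 livers held 79.8, 169 and 137 FPKM, and at Day 60 153, 165 and 58.8 FPKM. The third mouse of Day 60 was near the fetal level, while the other 2 were near the top of the range of all 36. Against GD17.5, the Day 60 mean was higher by 0.96 ± 0.27 on the log2 scale (SE, adjusted p = 0.00253), and no other age passed against Day 60. Without Day 60 replicate 3, however, Day 60 was above Day 0 (0.78, adjusted p = 0.00575) and Day 10 (0.68, adjusted p = 0.0217), and with a common upper quartile it was above Day 0 (0.64, adjusted p = 0.0277).

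Oat, which moves the amino group of ornithine to give glutamate semialdehyde and glutamate, stayed low until Day 10. It measured 21, 26.1 and 25.7 FPKM at GD17.5 and 16.2, 14.1 and 10.8 FPKM at Day 0, a difference of -0.80 ± 0.21 on the log2 scale (SE, adjusted p = 0.00253) without overlap between the mice. The Day 1 livers held 22.6, 14.8 and 25.5 FPKM, a rise of 0.57 ± 0.21 on the log2 scale (SE, adjusted p = 0.0414) that was lost when libraries were scaled to a common upper quartile of FPKM (0.42, adjusted p = 0.13). It was also lost without Day 0 replicate 3 (0.41, adjusted p = 0.211) or replicate 2 (0.59, adjusted p = 0.0697), and without Day 1 replicate 3 (0.41, adjusted p = 0.166) or replicate 1 (0.50, adjusted p = 0.143). Nor did this rise pass once dependence on GC content and length was removed (0.27, adjusted p = 0.274). At Days 3, 5 and 10 all 9 mice lay between 13.2 and 19.3 FPKM.

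Between Day 10 and Day 15 Oat rose by 1.60 ± 0.21 on the log2 scale (SE, adjusted p = 3.68e-06), its largest step. The mice measured 19.3, 13.2 and 13.3 FPKM at Day 10 and 35.8, 63.8 and 46.9 FPKM at Day 15, with no overlap. At Day 20 the values were 66.8, 85.1 and 67.8 FPKM, and at Day 60 144, 137 and 152 FPKM. The Day 60 mice were closely spaced, and all lay above every mouse of Day 20 and younger. Relative to Day 60, Oat was lower at every age from GD17.5 to Day 20, by 0.98 at Day 20 up to 3.33 at Day 0 on the log2 scale, and did not pass the test at Days 25, 30 and 45.

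Slc1a2, which carries glutamate into the cell, had the widest range of the 9 genes. At Day 0 its 3 values were 0.0579, 0.0701 and 0.0807 FPKM, at Day 3 0.173, 0.159 and 0.175 FPKM and at Day 5 0.492, 0.257 and 0.51 FPKM. These are levels at which the pseudocount of 1 FPKM hides most of a change. The next 3 steps all passed the test. Slc1a2 reached 1.86, 1.1 and 1.76 FPKM at Day 10, a rise of 0.85 ± 0.19 on the log2 scale (SE, adjusted p = 0.000809). It reached 4.03, 7.32 and 4.58 FPKM at Day 15, a rise of 1.27 ± 0.19 on the log2 scale (SE, adjusted p = 2.04e-05), and 9.3, 10.8 and 10.7 FPKM at Day 20, a rise of 0.87 ± 0.19 on the log2 scale (SE, adjusted p = 0.00891). In none of these 3 steps did the mice of the earlier and the later age overlap.

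After Day 20 no step of Slc1a2 passed the test, although that from Day 20 to Day 25 did without Day 60 replicate 3 (0.52, adjusted p = 0.0217). The Day 25 mice held 14.9, 14.2 and 16.4 FPKM, the Day 45 mice 20.6, 21.6 and 16 FPKM and the Day 60 mice 17.7, 18.6 and 8.61 FPKM. The third mouse of Day 60 lay below every Day 20 mouse, and also had the lowest Glul of its age. The Day 45 mean of 19.4 ± 2.99 FPKM (SD, n = 3) was 279 times that of Day 0. The last call of the Slc1a2 rise, from Day 15 to Day 20, was lost without Day 15 replicate 1 (0.72, adjusted p = 0.108) or replicate 3 (0.80, adjusted p = 0.0538), and without Day 20 replicate 2 (0.84, adjusted p = 0.0546) or replicate 3 (0.84, adjusted p = 0.0617). Once dependence on GC content and length was removed, this step did not pass either (1.01, adjusted p = 0.0551).

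Rhbg, a membrane carrier of ammonia, followed another course. It went from 4.49, 5.44 and 4.6 FPKM at GD17.5 to 3.22, 1.63 and 3.17 FPKM at Day 0, a difference of -0.70 ± 0.27 on the log2 scale (SE, adjusted p = 0.0304) with no overlap. That call was lost with the common upper quartile (-0.47, adjusted p = 0.156), without Day 0 replicate 2 (-0.48, adjusted p = 0.179) and without GD17.5 replicate 1 (-0.74, adjusted p = 0.0501), 2 (-0.63, adjusted p = 0.0901) or 3 (-0.73, adjusted p = 0.0501). It then rose by 0.87 ± 0.27 on the log2 scale (SE, adjusted p = 0.0159) to 4.25, 8.09 and 4.89 FPKM at Day 1. The highest Day 1 value belonged to the library that held kidney markers, and kidney also expresses Rhbg. The part of kidney RNA in the step was not tested, and without that mouse it was 0.63, adjusted p = 0.107, and without Day 0 replicate 2 0.64, adjusted p = 0.105, so that neither passed.

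The rise of Rhbg to Day 3, to 9.25, 16 and 18.2 FPKM, was 1.19 ± 0.27 on the log2 scale (SE, adjusted p = 0.00375) and held in every alternative run, and kidney markers summed to at most 0.0602 FPKM in the Day 3 livers. The maximum came at Day 5, with 18.7, 21.7 and 20.6 FPKM. Every Day 5 mouse exceeded every mouse of every other age, although the next age in order, Day 10, did not differ by the test (adjusted p = 0.169). From Day 10 to Day 45 the mice ranged from 6.03 to 17.9 FPKM, and at Day 60 they measured 4.29, 4.16 and 2.14 FPKM. Day 60 was below each age from Day 3 to Day 30, by 1.18 (Day 30) to 2.27 (Day 5) on the log2 scale. The Day 30 difference had an adjusted p of 0.00896 and was lost without Day 60 replicate 3 (-0.94, adjusted p = 0.0744), the lowest mouse of its age.

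Of the genes of Wnt feedback and transcription, Axin2 encodes a scaffold of the beta-catenin destruction complex and is itself turned on by beta-catenin. It was scarcely detected before and at birth, with 0.0662, 0.113 and 0.0676 FPKM at GD17.5 and 0.21, 0.0674 and 0.0637 FPKM at Day 0. At Day 1 it measured 0.288, 0.451 and 0.411 FPKM, all above every Day 0 mouse, with a difference of 0.31 ± 0.12 on the log2 scale (SE, adjusted p = 0.0577) that did not pass. This step passed with a pseudocount of 0.1 (1.23, adjusted p = 0.00666), with FPKM scaled to a common sum (0.63, adjusted p = 0.0338) and without any 1 of 4 mice (adjusted p = 0.0174 to 0.0498). The Day 3 livers held 0.766, 0.515 and 0.679 FPKM. At Day 10 the first mouse stood apart from its age mates, with values of 1.2, 0.399 and 0.553 FPKM. From Day 20 to Day 60 the means were 0.318 to 0.43 FPKM, and Day 60 was above GD17.5 by 0.39 ± 0.12 on the log2 scale (SE, adjusted p = 0.00595) in the fit without a filter. Without Day 60 replicate 2 this call was lost (0.29, adjusted p = 0.0602). The difference of Day 10 from GD17.5 was 0.64 ± 0.12 on the log2 scale (SE, adjusted p = 5.94e-05). No step of Axin2 passed in the fit without a filter when nothing else in it was changed.

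Lgr5, which binds R-spondins and sustains Wnt receptors at the membrane, was highest at Days 10 to 20. It measured 0.0895, 0.0835 and 0.0632 FPKM at Day 0, 0.555, 0.444 and 0.619 FPKM at Day 5 and 0.92, 0.812 and 0.705 FPKM at Day 10. At Day 15 the values were 0.916, 1.16 and 0.649 FPKM, and at Day 20, the last age before weaning, 1.12, 0.698 and 0.688 FPKM. At Day 25 they were 0.353, 0.0786 and 0.263 FPKM, so that every Day 25 liver lay below every Day 20 liver.

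Lgr5 was 0.81 ± 0.12 on the log2 scale (SE, adjusted p = 2.79e-06) higher at Day 15 than at Day 0. Its difference of Day 25 from Day 20 was -0.57 ± 0.12 on the log2 scale (SE, adjusted p = 0.00318) without a filter on low values, a comparison in which 4.17% of 18601 genes passed, and it held when any 1 of the 36 mice was left out. It was the only step of Lgr5 that passed, while that from Day 5 to Day 10 passed once dependence on GC content and length was removed (0.42, adjusted p = 0.000585). At Day 60 the 3 mice measured 0.622, 0.414 and 0.148 FPKM, lower than Day 15 by 0.46 on the log2 scale (adjusted p = 0.0068). That call was lost without Day 60 replicate 3 (-0.33, adjusted p = 0.0766) or Day 15 replicate 2 (-0.36, adjusted p = 0.0563).

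Tbx3, a transcriptional repressor, was low at all ages. It measured 0.3, 0.216 and 0.274 FPKM at Day 0, 1.35, 0.674 and 0.862 FPKM at Day 10, 0.477, 0.684 and 0.615 FPKM at Day 20 and 0.865, 2.15 and 0.985 FPKM at Day 60. The second mouse of Day 60 alone exceeded 2 FPKM. None of its 11 steps between successive ages passed as deposited, and no 2 neighbours in the order of its age means differed. Once dependence on GC content and length was removed, the steps from Day 5 to Day 10 (0.56, adjusted p = 0.00848) and Day 20 to Day 25 (0.56, adjusted p = 0.0149) passed. Day 60 was above Day 0 by 0.84 ± 0.18 on the log2 scale (SE, adjusted p = 0.000128) and above GD17.5 by 0.78 ± 0.18 on the log2 scale (SE, adjusted p = 0.000236), calls that held in every alternative run. Without Day 60 replicate 2, the calls against Days 1, 3, 5 and 20 were lost (0.30, 0.17, 0.25 and 0.28, adjusted p = 0.135, 0.402, 0.206 and 0.387). The call against Day 20 was close to the threshold as deposited (adjusted p = 0.0453). It was also lost with a pseudocount of 0.1 (adjusted p = 0.0512), without the filter (adjusted p = 0.0695) and with FPKM scaled to a common sum (adjusted p = 0.0779).

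Lect2, a secreted hepatokine and a target of beta-catenin, rose steeply after birth and was lower again in adults. At Day 0 the mice measured 17.9, 14.4 and 14.3 FPKM, at Day 1 23.7, 33.5 and 21.2 FPKM and at Day 3 90.6, 103 and 119 FPKM. The Day 1 and the Day 3 livers each lay wholly above those of the preceding age. These steps were 0.70 ± 0.17 on the log2 scale (SE, adjusted p = 0.00249) and 1.97 ± 0.17 on the log2 scale (SE, adjusted p = 2.20e-09), the latter the largest step of the 7 tested genes. Lect2 rose again to 189.9, 187 and 149 FPKM at Day 5, by 0.74 ± 0.17 on the log2 scale (SE, adjusted p = 0.00785), and reached 197, 237 and 241 FPKM at Day 10. The step to Day 10 did not pass as deposited (0.36, adjusted p = 0.0929). It passed with the common upper quartile (0.82, adjusted p = 0.00242) and once dependence on GC content and length was removed (0.76, adjusted p = 0.000415).

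The step from Day 3 to Day 5 was lost without Day 3 replicate 1 (0.65, adjusted p = 0.0726), Day 5 replicate 1 (0.68, adjusted p = 0.0552) or Day 5 replicate 2 (0.69, adjusted p = 0.0524). From Day 10 the age means of Lect2 were lower at every later age, down to 48.6, 44.1 and 30.2 FPKM at Day 60. The intermediate livers held 123, 142 and 120.4 FPKM at Day 20, 84.8, 80 and 77.8 FPKM at Day 30 and 55.6, 56.8 and 61.1 FPKM at Day 45. No single step of this decline passed as deposited. That from Day 15 to Day 20 was near the threshold (-0.59, adjusted p = 0.0669) and passed with the 5 FPKM filter (adjusted p = 0.0485) and without the 5 libraries with a length trend (adjusted p = 0.0438), and that from Day 20 to Day 25 passed once dependence on GC content and length was removed (-0.48, adjusted p = 0.0316). In the deposited values the Day 60 mean was below each age from Day 3 to Day 30, by 0.99 (Day 30, adjusted p = 0.000346) to 2.45 (Day 10, adjusted p = 8.68e-13). Against GD17.5, Day 0 and Day 1 it was higher, by 1.11, 1.33 and 0.63.

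Rgn, a calcium-binding gluconolactonase also known as SMP30, increased from fetal to adult liver. It measured 26.1, 35 and 24.8 FPKM at GD17.5 and 89.8, 64.4 and 43.2 FPKM at Day 0, a step of 1.13 ± 0.29 on the log2 scale (SE, adjusted p = 0.00172) with all newborn above all fetal values. The next mice held 59.6, 50.7 and 39 FPKM at Day 1, 126, 74.3 and 112 FPKM at Day 10 and 146, 199 and 148 FPKM at Day 20. None of the later steps passed as deposited. Once dependence on GC content and length was removed, 3 did, from Day 0 to Day 1 (-0.79, adjusted p = 0.00261), Day 1 to Day 3 (0.67, adjusted p = 0.0174) and Day 5 to Day 10 (0.66, adjusted p = 0.013). At Day 60 the values were 216, 265 and 154 FPKM, higher than Day 10 by 1.02 ± 0.29 on the log2 scale (SE, adjusted p = 0.0044). The differences from Days 15 to 45 did not pass as deposited. That from Day 15 passed without Day 60 replicate 3 (0.88, adjusted p = 0.0413) and once dependence on GC content and length was removed (0.60, adjusted p = 0.0166).

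Between successive ages, 14 of the 77 member steps passed, 12 up and 2 down, and all 14 fell between GD17.5 and Day 20. Among all genes, too, the largest shares called (54.6%, 36.3% and 31.6%) were in steps up to Day 20. Shares of all genes by direction are not given for these steps. In the order of age means, neighbouring ages differed in 3 of 11 places for Slc1a2 and Lect2, in 1 for Glul, Oat and Rgn, and in 0 for the other genes. From GD17.5 to Day 0, 4 of 7 genes passed (background 54.6%), with Glul and Rgn higher and Oat and Rhbg lower at birth. From Day 0 to Day 1, Oat, Rhbg and Lect2 rose (3 of 7, background 31.6%), and from Day 1 to Day 3 Rhbg and Lect2 rose further (2 of 7, background 11.3%). From Day 3 to Day 5 only Lect2 passed (1 of 7, background 3.2%), and from Day 5 to Day 10 only Slc1a2 (1 of 7, background 36.3%). With the common upper quartile Lect2 passed from Day 5 to Day 10 too (0.82, adjusted p = 0.00242), where 15.1% of all genes did. Oat and Slc1a2 rose from Day 10 to Day 15 (2 of 7, background 12%), and Slc1a2 alone from Day 15 to Day 20 (1 of 7, background 1.99%). The 4 steps after Day 20 gave 0 calls among 28 in limma in the deposited values, with 10 at an unadjusted p under 0.05, while 7.19%, 1.64%, 1.03% and 0.233% of all genes passed in them. Without the filter, Axin2 and Lgr5 gave 1 call among 22 steps, that of Lgr5 from Day 20 to Day 25. The shares of 18601 genes called in the 7 steps up to Day 20 were then 38.7%, 22.7%, 8.27%, 2.52%, 22.7%, 7.71% and 1.14%, and in the 4 later steps 4.17%, 0.935%, 0.543% and 0.263%.

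**Figure D2:**
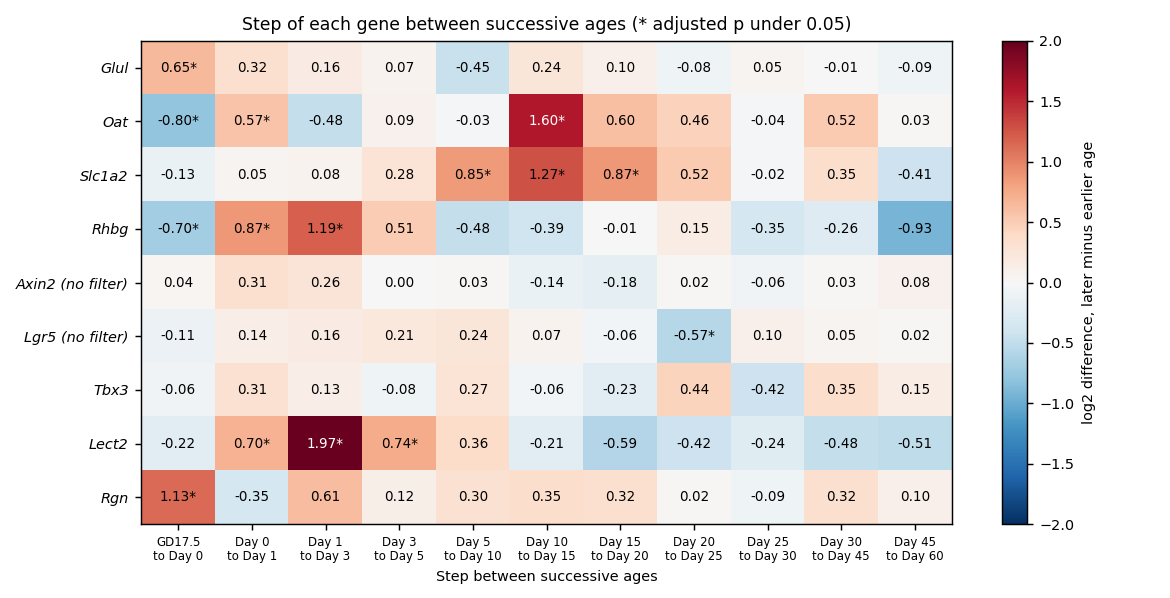
Log2 difference of each gene (rows) at each of the 11 steps between successive ages (columns, later minus earlier), on the log2(FPKM + 1) scale from limma, with red for higher and blue for lower at the later age and an asterisk for an adjusted p under 0.05. Lect2 from Day 1 to Day 3 (1.97) and Oat from Day 10 to Day 15 (1.60) are the largest steps shown, and Lgr5 is the only gene marked at the step from Day 20 to Day 25 (-0.57), in the fit without a filter.

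Compared with Day 60, 45 of 77 pairs of gene and age passed as deposited. Without the 5 libraries with a length trend 45 passed too, in a fit for which the share of all genes was not counted. With the share of all genes that passed in brackets, the count as deposited was 6 for GD17.5 (75.1%), 5 for Day 0 (63.9%), 5 for Day 1 (65%), 6 for Day 3 (66%) and 6 for Day 5 (65.4%). It was 5 for Day 10 (46%), 4 for Day 15 (27.4%), 4 for Day 20 (15.9%), 2 for Day 25 (7.42%), 2 for Day 30 (3.56%) and 0 for Day 45 (0.233%). At Day 45 the count of 0 from limma stood beside 3 genes with an unadjusted p under 0.05. At Days 25 and 30 the 2 genes were Rhbg and Lect2, both lower at Day 60. Without the filter, Axin2 and Lgr5 differed from Day 60 in 6 of 22 pairs, Axin2 at GD17.5 and Day 0 and Lgr5 at Days 0, 10, 15 and 20. Each of the 6 calls was lost without 1 mouse of Day 60. For Axin2 at Day 0 this was replicate 2 (0.25, adjusted p = 0.124) and for Lgr5 at Day 0 replicate 1 (0.24, adjusted p = 0.13). For Lgr5 at Days 10 and 20 it was replicate 3 (-0.26, adjusted p = 0.12 and -0.27, adjusted p = 0.22). In that fit 57.7%, 48.8%, 53.2%, 50.6% and 49.7% of 18601 genes passed at GD17.5 and Days 0, 1, 3 and 5, 33.7%, 17.9% and 10.2% at Days 10, 15 and 20, and 4.62% and 2.23% at Days 25 and 30. The last age that differed from Day 60 was Day 20 for Oat and Day 15 for Slc1a2. For Slc1a2 this rests on Day 60 replicate 3, without which Day 20 differed too (0.77, adjusted p = 0.0011).

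The study divided the ages into 3 groups from a clustering of these same livers, the perinatal ages up to Day 5, the pre-weaning ages (Days 10, 15 and 20) and the ages from Day 25 on, so these groups are not independent of the data. Averaged over GD17.5 to Day 5 and set against Days 25 to 60, 5 of 7 genes passed and all 5 were lower at the young ages, against 85.7% of all genes called, 70.2% higher and 15.5% lower. The difference was -3.83 ± 0.09 on the log2 scale (SE, adjusted p = 2.37e-25) for Slc1a2, -2.73 ± 0.10 on the log2 scale (SE, adjusted p = 1.48e-20) for Oat and -1.65 ± 0.14 on the log2 scale (SE, adjusted p = 3.16e-12) for Rgn. It was -0.61 ± 0.08 on the log2 scale (SE, adjusted p = 4.49e-08) for Lect2 and, for Tbx3, -0.43 ± 0.08 on the log2 scale (SE, adjusted p = 2.39e-05). Glul differed by -0.23 ± 0.13 on the log2 scale (SE, adjusted p = 0.0953) and Rhbg by 0.03 ± 0.13 on the log2 scale (SE, adjusted p = 0.832), and neither passed. Without Day 60 replicate 3 the Glul difference was -0.35, adjusted p = 0.00294, without Day 30 replicate 1 -0.31, adjusted p = 0.0227 and without Day 0 replicate 1 -0.28, adjusted p = 0.0471. In the fit without a filter, Axin2 differed by -0.01 ± 0.06 on the log2 scale (SE, adjusted p = 0.88). Lgr5 there differed by -0.08 ± 0.06 (SE, adjusted p = 0.224), where 73.7% of 18601 genes passed. The median over all 11149 genes of the filtered fit was 0.54, in the direction opposite to the 5 called genes.

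That median depends on scaling. With libraries brought to a common upper quartile it was 0.14, and 7 of 7 genes were then called lower, where 78.8% of all genes passed and 32% were lower. Glul then differed by -0.87 ± 0.12 on the log2 scale (SE, adjusted p = 1.63e-07) and Rhbg by -0.53 ± 0.13 on the log2 scale (SE, adjusted p = 0.000457), the latter with a change of sign. Without the filter, this scaling also gave lower Axin2 (-0.18, adjusted p = 0.0057) and Lgr5 (-0.22, adjusted p = 0.00243). Both passed as lower once dependence on GC content and length was removed (-0.47 and -0.42). For Lect2 the choice of young ages decided the direction. Over Days 1 to 5 alone, where 6 of 7 genes passed and 84.1% of all genes did (73.1% higher), Lect2 was higher than at Days 25 to 60 by 0.25 ± 0.09 on the log2 scale (SE, adjusted p = 0.012), and Rhbg by 0.62 ± 0.15 on the log2 scale (SE, adjusted p = 0.0003).

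Averaged over Days 10 to 20 and set against Days 25 to 60, 5 of 7 genes passed, against 57.3% of all genes (44.9% higher and 12.4% lower). Lect2 was higher before weaning by 1.43 ± 0.09 on the log2 scale (SE, adjusted p = 9.19e-14) and Rhbg by 0.61 ± 0.15 on the log2 scale (SE, adjusted p = 0.000713). Those called lower differed by -1.64 ± 0.11 on the log2 scale (SE, adjusted p = 7.20e-13) for Oat, -1.58 ± 0.10 on the log2 scale (SE, adjusted p = 1.30e-13) for Slc1a2 and -0.47 ± 0.15 on the log2 scale (SE, adjusted p = 0.0117) for Rgn. In the fit without a filter, Lgr5 was higher by 0.48 ± 0.06 on the log2 scale (SE, adjusted p = 7.83e-07), where 34.3% of genes were called higher, and Axin2 differed by 0.15 ± 0.06 on the log2 scale (SE, adjusted p = 0.0562). The Axin2 difference passed without any 1 of 7 mice (0.16 to 0.20, adjusted p = 0.0108 to 0.0495). With the common upper quartile, Tbx3 differed by -0.25 ± 0.09 on the log2 scale (SE, adjusted p = 0.0246) and was the sixth gene called, against 56.0% of all genes. Without the 5 libraries with a length trend, 6 of 7 genes passed in each of the 2 group comparisons, a fit for which the share of all genes was not counted.

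**Figure D3:**
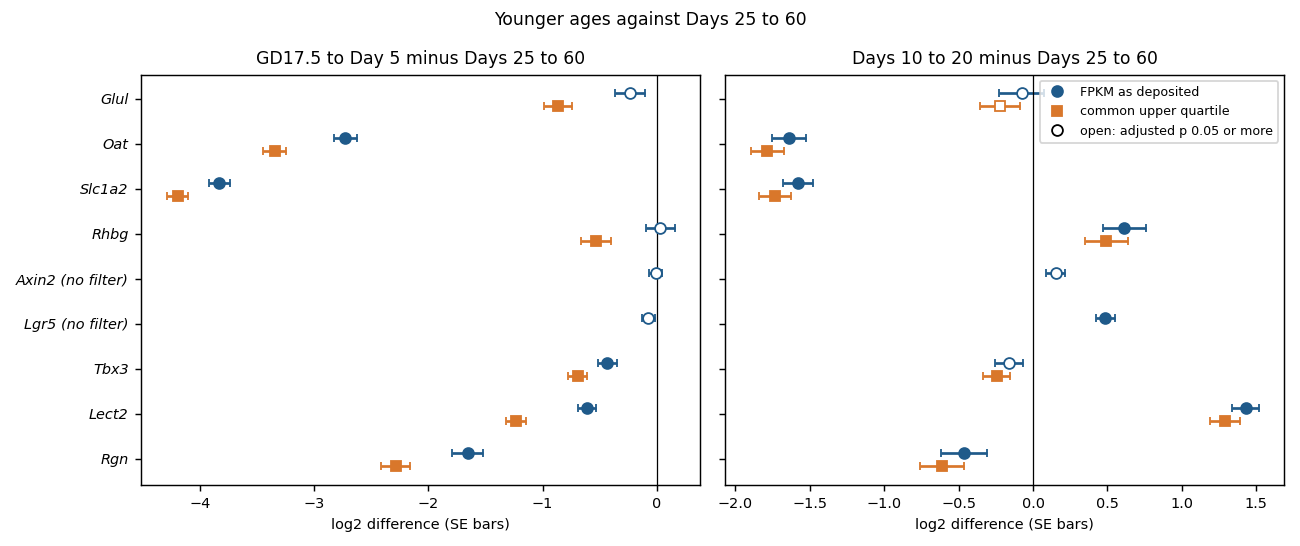
Log2 difference of each gene between the young ages and Days 25 to 60 (x axis, bars are standard errors from limma), for GD17.5 to Day 5 on the left and Days 10 to 20 on the right. Circles show FPKM as deposited and squares libraries scaled to a common upper quartile (drawn for the 7 tested genes), open where the adjusted p was 0.05 or more. Slc1a2 and Oat lie farthest below 0 on the left (-3.83 and -2.73), and Lect2 (1.43), Rhbg (0.61) and Lgr5 (0.48) lie above 0 on the right.

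Over the 12 age means the 9 genes fell into unlike courses, given here as correlations of log2(FPKM + 1) that describe shared change with age and carry no test. Oat and Slc1a2 had r = 0.957, Slc1a2 and Rgn 0.898, and Rhbg and Lect2 0.89. Lect2 also followed Lgr5 (0.838) and Axin2 (0.826), and Oat was nearly unrelated to Rhbg (-0.145), Axin2 (-0.154) and Lect2 (0.0548). Among 6450 other tested genes that reached 5 FPKM, those most alike to Slc1a2 were Pnkd (0.99), Mug-ps1 (0.99), Cyp2c29 (0.99), and those most alike to Oat Cyp2c38 (0.97), Mug2 (0.97), Cyp2c39 (0.97). For Rgn they were Pm20d1 (0.98), Sec14l4 (0.98), Hsd11b1 (0.98), for Lect2 Serpind1 (0.95), Rnaset2b (0.95), Bloc1s1 (0.95) and for Glul Rbp4 (0.95), Bhmt2 (0.94), Cblc (0.94). Rhbg was nearest to Tmem176a (0.95), Pla2g12b (0.90), Aga (0.89), and Tbx3 to Mlxipl (0.94), Cds2 (0.91), Anks4b (0.89). The Cyp2c and Mug families hold near-identical copies, between which the counting of reads could have been split.

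Mice of 1 age also differed together in some of these genes. With the age mean removed, 7 of 36 gene pairs passed a two-sided permutation test over the 36 mice (100000 resamples within age, Benjamini-Hochberg over 36 pairs). The share of pairs of other genes that would pass was not tested, so the count has no background beside it. The firmest was Axin2 with Tbx3 (r = 0.762, rho = 0.787, adjusted permutation p = 0.00036, the smallest the test can give, and 0.00054), and r was 0.764 without the 2 mice farthest from the median of Axin2. Tbx3 with Rgn had r = 0.673 and rho = 0.707 (adjusted permutation p = 0.00108 and 0.00054), and r = 0.669 without 2 mice. Rhbg with Lect2 had r = 0.621 and rho = 0.596 (adjusted permutation p = 0.0201 and 0.0205), and r = 0.543 without 2 mice. Rhbg and Lect2 had r from -0.251 to -0.0293 with Axin2, Lgr5 and Tbx3 in the deposited values.

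The other 4 pairs were Glul with Lgr5 (r = 0.645), Lgr5 with Rgn (0.548), and Rgn with Axin2 and with Glul (both 0.575), with adjusted permutation p-values of 0.0225, 0.0201, 0.0253 and 0.0404. By rank, Glul with Rgn did not pass (rho = 0.494, adjusted permutation p = 0.0828), while Axin2 with Lgr5 did (rho = 0.541, adjusted permutation p = 0.0212). Without the 5 libraries with a length trend 31 mice remained and only Axin2 with Tbx3 passed (r = 0.789, adjusted permutation p = 0.0313). The r of the other pairs stayed near its value over 36 mice for Rhbg with Lect2 (0.635), Tbx3 with Rgn (0.647) and Axin2 with Rgn (0.587), and was 0.522 for Glul with Lgr5, 0.471 for Glul with Rgn and 0.454 for Lgr5 with Rgn. After the dependence of every library on GC content and on transcript length had been taken out, Axin2 with Tbx3 (0.707) and Rhbg with Lect2 (0.694) still passed, Slc1a2 with Lgr5 (0.773) was added, and Lgr5 with Rgn turned negative (-0.339). Lgr5 then had r = 0.452 with Rhbg and 0.37 with Lect2, neither of which passed.

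**Figure D4:**
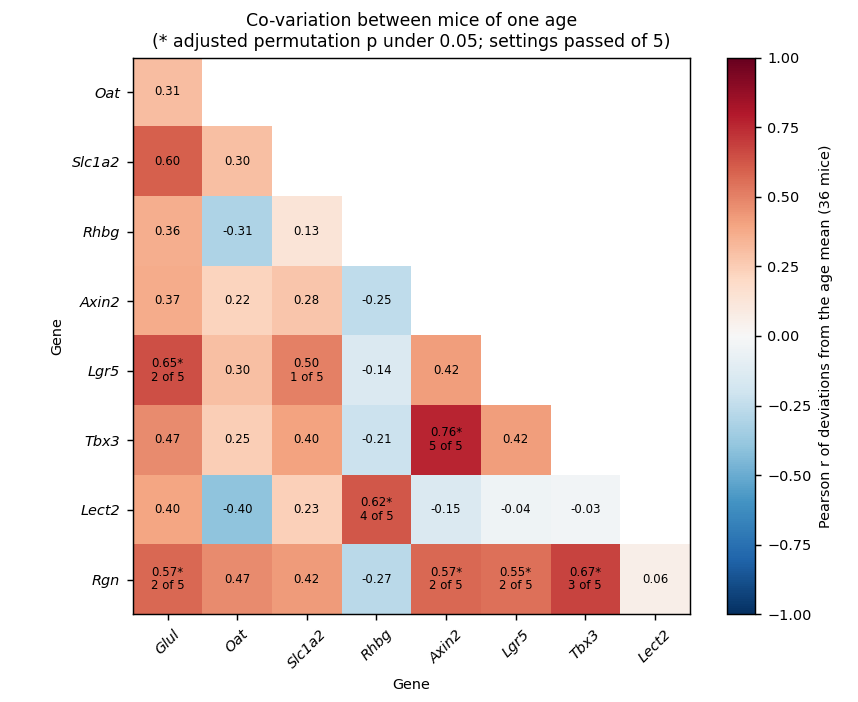
Pearson r between each pair of the 9 genes over 36 mice, computed on deviations of log2(FPKM + 1) from the mean of the age (red positive, blue negative), with an asterisk for an adjusted permutation p under 0.05 in the values as deposited and, below, in how many of 5 ways of processing the pair passed. Axin2 with Tbx3 passed in all 5 and Rhbg with Lect2 in 4.

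A list of 12 other genes of pericentral hepatocytes was mostly lower in young liver too. Averaged over GD17.5 to Day 5 against Days 25 to 60, 10 of 12 were lower and 1 higher, where 15.5% of all genes were lower and 70.2% higher (32% and 46.8% with the common upper quartile, where the list counts were the same). The list median was -2.25 beside 0.54 for all genes. Aldh1a1, an enzyme of retinoic acid synthesis, was lowest (-6.53 ± 0.14 on the log2 scale, SE), and Slc13a3, a dicarboxylate transporter, was highest and went against the rest (3.16 ± 0.14). Before weaning, at Days 10 to 20, the list held 5 genes higher and 6 lower than at Days 25 to 60, where 44.9% of all genes were higher and 12.4% lower. Of 14 periportal genes, 13 were lower and 1 higher in the youngest group (median -2.01). Cyp2f2, a periportal cytochrome P450, was lowest (-4.92 ± 0.13), and Cdh1, the epithelial cadherin, was highest (0.43 ± 0.11) but was not called with the common upper quartile. Of the 8 hepatocyte markers, 5 were lower and 1 higher in the same comparison (median -0.76). With the common upper quartile 7 were lower and 0 higher (median -1.40). The part of this shift in the values of the lists was not tested. In both lists lower values at the youngest ages were the rule. Among the members, 5 of 7 tested genes were lower as deposited, and Glul, Rhbg, Axin2 and Lgr5 were not called.

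The counts for genes of the Wnt pathway stand beside 70.2% of all genes called higher and a median of 0.54, or 46.8% and 0.14 with the common upper quartile. Of 15 core components of beta-catenin signaling, 13 were tested, and 12 were higher and 0 lower at GD17.5 to Day 5 (median 0.82), from -0.11 ± 0.09 for Dvl1, which was not called, to 1.37 ± 0.08 for the transcription factor Tcf7l1. With the common upper quartile, 8 were higher and 2 lower. Of 10 tested receptors and co-receptors, 6 were higher and 1 lower (median 0.33), against 2 and 3 with the common upper quartile. Fzd1, a frizzled receptor, was highest (1.16 ± 0.09), and Lgr4, a relative of Lgr5, was lowest and alone was called lower (-0.56 ± 0.11). Among the ligands and R-spondins, 3 of 10 were tested and all 3 were higher (median 0.25), from Wnt2 (0.23 ± 0.09) to Wnt4 (1.50 ± 0.14), while with the common upper quartile 1 was higher and 1 lower. The medians of the receptors and of the ligands lay below that of all genes. Endothelial markers (6 of 7 higher and 1 lower, median 1) and stellate and mesenchymal markers (5 of 6 higher, median 1.36) moved in the same comparison, and their part in these values was not tested.

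Of 11 other targets and feedback genes of the pathway, 7 were tested, and 6 were higher and 1 lower in the youngest group (median 0.55, and 3 higher and 2 lower with the common upper quartile). Dkk3, a member of the Dickkopf family, was highest (0.72 ± 0.06), and Notum, a secreted enzyme that inactivates Wnt ligands, went against the rest (-1.90 ± 0.07). Notum measured 0.292 ± 0.156 FPKM at Day 1, 11.7 ± 2.12 FPKM at Day 20 and 5.26 ± 0.784 FPKM at Day 60 (mean ± SD, n = 3). At Days 10 to 20 all 7 of these targets were higher than at Days 25 to 60 (median 0.66 beside 0.19 for all genes), in both scalings. Among the members, Lgr5, Lect2 and Rhbg were higher too, but Oat, Slc1a2 and Rgn were lower. Glul, Axin2 and Tbx3 were not called as deposited, and Tbx3 was called lower with the common upper quartile. In the same comparison 6 of 10 tested receptors and 2 of 3 tested ligands were higher and 0 lower. Among all genes 44.9% were higher and 12.4% lower (37.4% and 18.6% with the common upper quartile). Endothelial markers (6 of 7 higher, median 0.76) and stellate and mesenchymal markers (6 of 6 higher, median 1.37) were higher at these ages too.

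**Figure D5:**
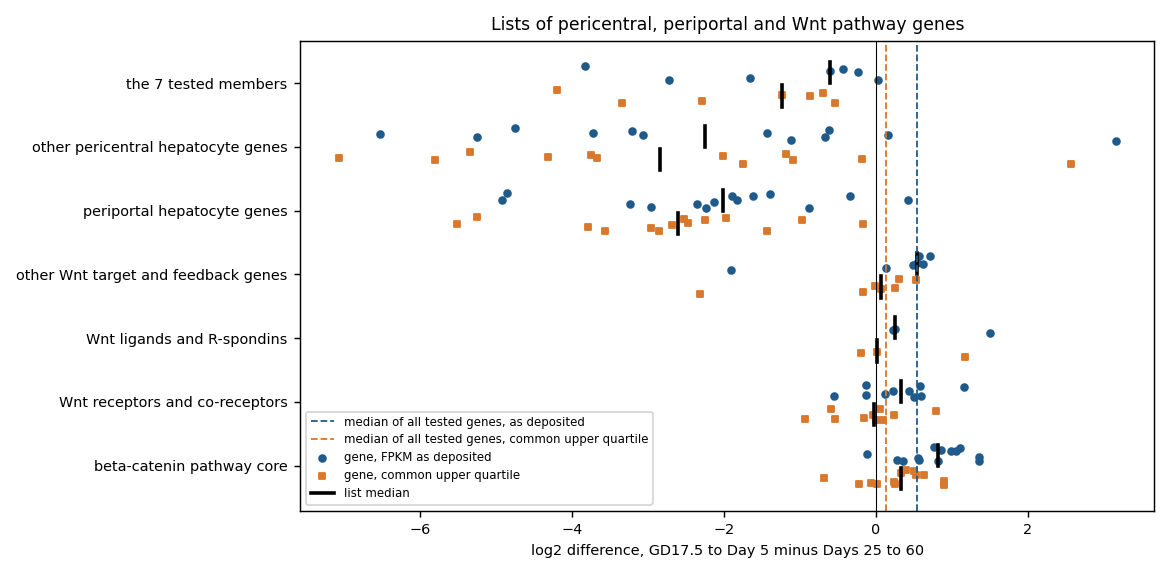
Log2 difference of GD17.5 to Day 5 minus Days 25 to 60 (x axis) for the 7 tested members and the tested genes of 6 lists (rows), with circles for FPKM as deposited and squares for a common upper quartile, spread vertically only to separate points. Black bars are list medians (from -2.25 for other pericentral genes to 0.82 for the beta-catenin core as deposited), and dashed lines are the medians of all 11149 tested genes (0.54 as deposited, 0.14 with the common upper quartile).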

How the data were processed

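Livers of 36 mice were measured by RNA-Seq (poly-A libraries, paired ends of 100 bases). Per the submitters' processing notes, reads were aligned with TopHat 1.2.0 to mm9 and quantified with Cufflinks 1.0.3, and the authors deposited FPKM, with no counts. The study states an average number of reads per sample but not the depth of each library, so no counting interval is given. The spacing of low values gave a relative depth of 0.895 to 1.21 in 33 libraries and no clear spacing in 3. FPKM summed to 353712 to 450597 per library.

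The members and gene lists were chosen with earlier results of these data known. Values were analysed as log2(FPKM + 1) with limma 3.58.1 (R 4.3.3), with 1 mean per age, a mean-variance trend and 36 mice sharing 1 spread, for the 11149 genes whose mean reached 1 FPKM at an age, and p-values were Benjamini-Hochberg adjusted over all genes in a comparison (in the test of any age against Day 60, over all 11). For each tested member the 3 genes most alike over age means are named, and for each list its extremes and the genes against its majority. On simulated data with 200 of 11149 genes changed, 97% of 2-fold and 100% of 4-fold changes were recovered for GD17.5 to Day 5 against Days 25 to 60. For Day 60 against GD17.5, with 3 mice per age, 81% and 99% were recovered. Many more genes passed in the real data, so the adjusted threshold there is not the simulated one. Alternatives were another pseudocount, no filter, a 5 FPKM filter, 2 scalings, no trend, a replicate block and leaving out each mouse. The length-trend and GC alternatives were chosen after seeing the data.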

Additional observations from a re-analysis of the deposited data

How the results depend on the processing

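With each mouse left out in turn, 6 to 7 of the 7 tested genes differed from Day 60 (6 without Day 60 replicate 1 or 2), with 41 to 48 of 77 pairs of gene and age, 11 to 16 steps between successive ages, and 5 to 6 genes in each comparison of age groups. The shares of all genes called were counted only as deposited, without the filter and with the common upper quartile, so member counts from other fits have no background beside them. Over all values of single genes, leaving out a mouse kept 7360 calls as they were, gained 32 and lost 60, and the other alternatives kept 1692, gained 44, lost 14 and turned 5. Those 5 were Rhbg at GD17.5 to Day 5 against Days 25 to 60 with the common upper quartile (-0.53) and after the dependence of every library on GC content and length was taken out (-0.62), Lect2 when the young ages were Days 1 to 5 (0.25), and Axin2 at Day 60 against Day 3 (0.27) and Day 5 (0.24) after that correction. The causes were not tested.

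Of the 36 gene pairs compared within ages, 7 passed as deposited, 3 with the common upper quartile, 1 without the 5 libraries with a length trend, and 3 with GC and length trends removed, where Lgr5 with Rgn had r = -0.339. The same replicate numbers recur at each age, but the labels tie them to no litter or day. Over 198 pairs of same-numbered mice the correlation of deviations had a median of 0.126 (-0.68 to 0.829), against -0.0476 over 396 pairs with other numbers. Of 36 mice, 19 correlated best with their own number. Same-numbered mice were thus somewhat more alike by the median, and what they share was not tested. The trend of replicate 1 with GC content was negative at every age except Day 30. As the labels name no pairing, the numbers were used only in an alternative fit, and the permutation test within ages took no account of them. With the replicate number as a block, 7 genes differed from Day 60, with 46 pairs, 15 steps, and 5 genes in each comparison of age groups. The block brought Lect2 from Day 15 to Day 20 (adjusted p = 0.0495), Rhbg at Day 60 against Day 1 (0.0427), Axin2 from Day 0 to Day 1 (0.0466) and Axin2 at Days 10 to 20 against Days 25 to 60 (0.0471) under the threshold. FPKM without counts limits what can be said of Axin2 and Lgr5, whose age means all stayed under 1 FPKM.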
